A study of Mus musculus with 18 samples.

Results

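The clustered histone genes are the mouse genes whose symbols begin with Hist1h, Hist2h, Hist3h or Hist4h. Symbols were matched by gene identifier, and 70 of the 55487 rows of the count tables were members. By symbol, 6 belonged to the linker histone H1, and 20, 19, 12 and 13 to the core histones H2A, H2B, H3 and H4. Of these, 67 were annotated as protein-coding, while Hist1h2aj, Hist1h2al and Hist3h2bb-ps were annotated as pseudogenes. The members lay in 4 clusters, with 56 on chromosome 13, 10 on chromosome 3, 3 on chromosome 11 and 1 on chromosome 6, and 55 of them fell within chr13:21715763-23934851 (mm10). Of the 70, 61 had 10 or more counts in at least 3 libraries and 59 entered the tests, the pseudogenes Hist1h2aj and Hist1h2al among them.

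The study sequenced RNA of mouse forelimb buds, with 3 libraries in each of 6 groups. Mutants were Esco2fl/fl;Prrx1-CreTg/0 and controls were Esco2fl/fl without Cre, and both genotypes were sampled at E9.5 (E for embryonic day), E10.5 and E11.5. Both genotypes therefore carried the same loxP-flanked Esco2 alleles, and effects of Cre and of Esco2 loss cannot be told apart here. Prrx1-Cre is active in limb mesenchyme, while the buds also held ectoderm, vessels and blood. Libraries were made from individual limb buds. Nothing in the labels ties them to separate embryos, so the p-values rest on a spread between libraries that may be technical.

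Most clustered histone genes are expressed during DNA replication, when newly made DNA has to be packed into nucleosomes. Their transcripts usually have no introns and no poly(A) tail: they end shortly after a stem-loop in the 3' untranslated region, which is bound by the stem-loop binding protein SLBP and cut with the help of the U7 small nuclear RNP. Some members also give polyadenylated transcripts that run past the stem-loop, and how RNA was selected for these libraries (by poly(A) tail or by removal of ribosomal RNA) was not stated in the labels. Esco2 encodes an acetyltransferase that acts on cohesin during replication.

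The stem-loop is shown because it defines the class of transcript. In the GENCODE M21 transcripts, 42 members held one, with 6-base arms and a 4-base loop that begins with TTT, allowing 2 mismatches to the most common arms. The following examples give the stem-loop with 5 bases on each side, from 5' to 3', with the paired arms in capitals.
Hist1h1c: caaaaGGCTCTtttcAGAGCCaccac
Hist1h2ag: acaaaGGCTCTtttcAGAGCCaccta
Hist1h2bj: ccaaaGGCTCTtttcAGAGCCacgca
Hist3h2ba: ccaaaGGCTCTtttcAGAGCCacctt
Hist1h3a: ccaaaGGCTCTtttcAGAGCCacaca
Hist1h3c: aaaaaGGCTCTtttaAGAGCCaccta
Hist1h4i: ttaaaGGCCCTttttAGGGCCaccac
Hist1h4h: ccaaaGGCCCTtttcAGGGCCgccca
All 33 stem-loops found in H1, H2A, H2B and H3 members had the arms GGCTCT and AGAGCC, and all 9 found in H4 members had GGCCCT and AGGGCC. In 21 members the gene model ended within 100 bases after the stem-loop, and in 21 it ran on further, by 840 bases in Hist1h1c, 330 in Hist1h4i and 169 in Hist3h2ba. No stem-loop was found in the models of 28 members, 17 of which were shorter than 450 bases, and bases beyond a model's end were not searched.

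Promoters differed between types. In 14 pairs, each of an H2A and an H2B gene and together 28 of the 70 members, the start sites lay head to head with 172 to 305 bases between them. The 250 bases before the start were taken from RefSeq (GRCm38.p6) for 62 of the 70 members. CCAAT, searched on both strands, was in all 6 H1, 18 H2A and 16 H2B promoters and in 8 of 10 H3 promoters, against 3 of 12 H4 promoters and 33.8% of all 32851 promoters. TATAAA, searched the same way, was in 29 of the 62, against 12.4% of all. The octamer motif was in 7 H2A and 6 H2B promoters and in no H1, H3 or H4 promoter, against 1.601% of all. Head-to-head pairs share most of their window, so the H2A and H2B counts are not independent, and a match is only a match of letters.

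The promoters below belong to the most abundant H4 member, a second H4 member that differed between genotypes, the member with the largest called change between stages, and a head-to-head pair of abundant members. Capitals mark CCAAT and TATAAA on either strand. The stretch between Hist1h2ag and Hist1h2bj is chr13:22042950-22043197 on the plus strand, where Hist1h2bj reads, and it holds 5 CCAAT matches.
Hist1h2ag and Hist1h2bj: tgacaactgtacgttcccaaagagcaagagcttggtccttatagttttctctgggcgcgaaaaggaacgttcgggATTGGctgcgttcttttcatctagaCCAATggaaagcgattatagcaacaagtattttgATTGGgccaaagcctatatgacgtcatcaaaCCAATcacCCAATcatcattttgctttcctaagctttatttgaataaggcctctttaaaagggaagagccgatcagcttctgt
The Hist1h4i promoter is chr13:22041363-22041612 on the minus strand, the Hist1h4b promoter is chr13:23756687-23756936 on the plus strand, and the Hist3h2ba promoter is chr11:58948661-58948910 on the plus strand.
Hist1h4i: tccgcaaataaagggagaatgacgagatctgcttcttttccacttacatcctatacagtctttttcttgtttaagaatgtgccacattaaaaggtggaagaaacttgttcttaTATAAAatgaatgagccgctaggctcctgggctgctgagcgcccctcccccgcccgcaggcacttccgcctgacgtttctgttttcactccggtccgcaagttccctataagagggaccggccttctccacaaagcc
Hist1h4b: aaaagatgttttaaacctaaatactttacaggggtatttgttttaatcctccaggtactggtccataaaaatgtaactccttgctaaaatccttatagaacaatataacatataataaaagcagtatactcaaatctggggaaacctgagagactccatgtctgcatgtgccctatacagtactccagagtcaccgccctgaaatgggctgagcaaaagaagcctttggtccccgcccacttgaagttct
Hist3h2ba: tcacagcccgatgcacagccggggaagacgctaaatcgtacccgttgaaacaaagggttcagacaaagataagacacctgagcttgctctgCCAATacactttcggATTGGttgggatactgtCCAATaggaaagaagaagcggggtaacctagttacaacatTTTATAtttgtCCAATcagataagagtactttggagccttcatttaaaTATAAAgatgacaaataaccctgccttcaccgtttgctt
The Hist3h2ba window held 4 CCAAT and 2 TATAAA matches, Hist1h4i 1 TATAAA match, and Hist1h4b neither. The Hist1h4b window ends at the RefSeq start, whereas the counted gene model begins at chr13:23757013, and the bases between were not searched.

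Library totals ran from 35034237 to 56230058 counts, of which the members made up between 0.00610% and 0.0162%. Esco2, given as a check of the labels, stood at 20.6 to 33.6 CPM (counts scaled to the library size after TMM normalization) in the controls and at 15.3 to 23.8 CPM in the mutants, and its ranges met only at E11.5. Summed over 7 limb mesenchyme markers, mutants had 824 to 1077 CPM at E10.5 and 801 to 1033 CPM at E11.5, against 1701 to 1726 and 1920 to 1948 CPM in controls, with 4 of 7 and 5 of 7 markers lower by edgeR's test. Surface ectoderm markers were higher in mutants for 8 of 8 at both of these stages, with sums of 545 to 792 against 257 to 363 CPM at E10.5, and of 354 to 548 against 211 to 279 CPM at E11.5. Macrophage markers were higher for 5 of 7 and 6 of 7. Erythroid markers were higher at E10.5 for 7 of 11. Over all genes, 7.30% were called higher and 6.63% lower at E10.5, and 8.02% and 9.52% at E11.5. None of these markers had a group mean of 0. Sums over 6 endothelium markers overlapped between genotypes at each stage, with means of 350 CPM in mutants and 314 CPM in controls at E10.5. At E11.5 these means were 281 and 287 CPM. In such whole-bud RNA, fewer cells of a type and less RNA per cell cannot be told apart, and the part of cell mixture in the results below was not tested.

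A pair of libraries stood apart. Control E9.5 replicate 1 had the fewest detected genes, 22294 against 24125 or more elsewhere, and the highest summed histone level, 192 CPM against 64.8 to 137 CPM in the other 17. It held the highest value of 35 of the 61 reported members among 18 libraries, and of 50 of 61 among the 3 controls of its stage. Its counts for Rn7sk, an abundant RNA without a poly(A) tail, were 128 against 33 and 28 in the other E9.5 controls, although E10.5 controls had 133 to 242. The 11 replication-independent histone genes summed to 6257 CPM in it, against 3829 to 4926 CPM in the others. Mutant E10.5 replicate 3 stood apart by an erythroid sum of 20099.5 CPM, against 6399 and 9999 CPM in its group, and its summed histone level of 111 CPM was close to the 96.6 and 97.0 CPM there.

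The members had low counts. A reported member had a median of 33 counts per library. A list of 13 RNAs without a poly(A) tail, Rn7sk among them, summed to 0.71 to 5.63 CPM. How fully such transcripts, and those of the members, were recovered in these libraries was not tested. Hist1h4i alone, an H4 gene, held 21.5% of all counts of the members, and the 6 genes with most counts, which also included Hist1h1c, Hist1h3c, Hist2h2be, Hist3h2ba and Hist1h2bc, held 51.8%. Read pairs that align to several places are left out by the counting program's defaults, and 47 of the 61 reported members shared at least some 150-base windows with another gene, 16 of them over 50% of their windows. Values of those members are uncertain, as are those of the 5 that shared exon bases on the same strand with another gene. The 9 members not reported were Hist1h2aa and Hist1h2ba, Hist1h2bq, Hist1h2br, Hist2h2aa1, Hist2h2aa2, Hist2h3c1, Hist2h3c2 and the pseudogene Hist3h2bb-ps. Of the testis forms, Hist1h2aa had 0 counts in all libraries and Hist1h1t reached at most 0.34 CPM, too little to be tested, as was Hist2h2ab.

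Levels can be compared between genes per length of the gene model, as CPM per kb averaged over 18 libraries. On that scale Hist1h4i was the highest, at 29.6 ± 16.1 (SD over 18 libraries, group differences included). Hist1h3c, an H3 gene, followed at 9.80 ± 3.30, then Hist1h1c, an H1 gene, at 7.16 ± 2.37 and Hist3h2ba, an H2B gene, at 7.02 ± 4.63 CPM per kb. The leading H2A genes were Hist1h2ag at 5.55 ± 2.02 and Hist1h2ae at 4.88 ± 1.604 CPM per kb. Behind Hist1h4i, the ranges of mean ± SD of neighbours in this order overlapped, and the order itself was not tested. The type sums below turned on a few genes, and Hist1h4i made up 46.5% to 84.0% of the H4 sum, depending on the library.

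Summed over all members, the controls had 192, 86.8 and 92.3 CPM at E9.5, 89.98, 87.4 and 86.6 CPM at E10.5, and 81.6, 125 and 137 CPM at E11.5 (replicates 1 to 3). Mutants had 109, 64.8 and 71.1 CPM at E9.5, 96.6, 97.0 and 111 CPM at E10.5, and 107, 86.2 and 92.2 CPM at E11.5. Mutants and controls overlapped at E9.5 and E11.5 and did not overlap at E10.5, where the 3 mutants were higher. The log2 ratio of mutant to control means was -0.60 at E9.5, 0.20 at E10.5 and -0.27 at E11.5. Without control E9.5 replicate 1 the E9.5 ratio was -0.13, and without Hist1h4i the E10.5 ratio was 0.051.

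**Figure D1:**
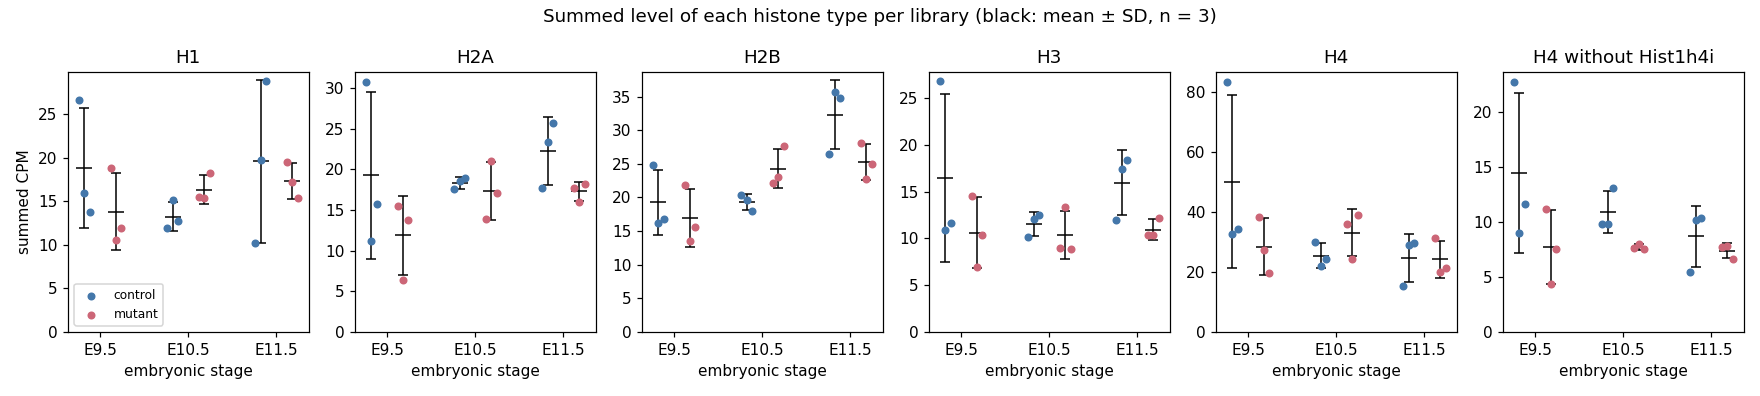
Summed CPM (vertical axis) of each histone type and of H4 without Hist1h4i by embryonic stage, 1 point per library, controls blue and mutants red, with mean ± SD in black (n = 3). Control E9.5 replicate 1 lies highest among the E9.5 libraries in every panel, and E11.5 control replicates 2 and 3 have the highest H2B sums, 35.7 and 34.8 CPM.

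By type, H2B sums rested on the late stages. Control H2B sums were 24.8, 16.2 and 16.8 CPM at E9.5, 20.4, 19.7 and 18.0 CPM at E10.5, and 26.4, 35.7 and 34.8 CPM at E11.5, so the E11.5 controls lay above all other controls. Mutant H2B sums were 22.2, 23.0 and 27.6 CPM at E10.5, above the controls of that stage, and 28.0, 22.8 and 24.9 CPM at E11.5, overlapping with theirs. The separation at E10.5 turned on Hist1h2bc, an H2B gene: with it taken out of the sum, mutants and controls overlapped. The H4 sum went another way. Control H4 was 83.4, 32.6 and 34.3 CPM at E9.5 and 29.99, 22.01 and 24.5 CPM at E10.5. H4 in E10.5 mutants was 36.0, 24.3 and 39.0 CPM, but without Hist1h4i it was 7.67, 8.01 and 7.53 CPM, below the 9.78, 9.82 and 13.1 CPM of the controls. The H4 sum at E10.5 had a log2 ratio of mutants to controls of 0.38, with overlapping groups. Over the 12 H4 genes besides Hist1h4i the ratio was -0.49, without overlap. Hist1h4i itself was called between genotypes at E10.5 in 0 of 27 settings, at log2 differences of 0.60 to 1.11.

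The H1 sum at E10.5 likewise turned on 1 gene. It was 15.5, 15.3 and 18.2 CPM in mutants and 11.95, 15.1 and 12.7 CPM in controls, with no overlap and a log2 ratio of 0.30, and the ratio was -0.31 without Hist1h1c. H2A and H3 sums overlapped between genotypes at all 3 stages, with log2 ratios at E11.5 of -0.36 and -0.54. No test was made of any sum, because sums were formed over members chosen with earlier results known.

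At E9.5 no member passed the test for mutants against controls (edgeR's quasi-likelihood fit, p-values adjusted by Benjamini-Hochberg over 20118 genes, threshold 0.05), where 0.184% of all genes passed, 0.179% higher and 0.00497% lower. DESeq2 called 1 member, Hist1h4h, as lower. At an unadjusted p under 0.05 there were 12 of 59 in edgeR, all lower in mutants, where 9.92% of all genes had such a p, and 50 of 59 had a negative log2 change, with a median of -0.72 against -0.01 over all genes tested. Mutant and control libraries did not overlap for 5 members, all lower, where 5.26% of all genes were higher and 3.61% lower without overlap. When control E9.5 replicate 1 was left out, the median was -0.21, 2 of 60 members had an unadjusted p under 0.05, where 4.39% of all genes had one, and none was called. Without mutant E9.5 replicate 2 the median was -0.43. Leaving out another library made 1 call each time: without control E9.5 replicate 2 Hist1h4h was lower (log2 -2.64, adjusted p 0.0481), and without mutant E9.5 replicate 1 Hist1h3b was lower (log2 -4.59, adjusted p 0.0300, edgeR's test).

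The member with the smallest p at E9.5 was Hist1h4h, an H4 gene with a stem-loop 46 bases before the end of its model, named after its values were seen. It had 1.70, 0.31 and 0.74 CPM in controls and 0.28, 0.16 and 0.14 CPM in mutants. All mutants lay under all controls, with a log2 difference of -2.22 ± 0.58 and an adjusted p of 0.249 in edgeR's test. Of its 150-base windows, 28.0% also occurred in another gene. Hist1h4i had 60.7, 23.6 and 22.6 CPM in controls and 27.2, 23.0 and 11.98 CPM in mutants, and its groups overlapped (log2 -0.78 ± 0.42, adjusted p 0.506 in edgeR's test).

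**Figure D2:**
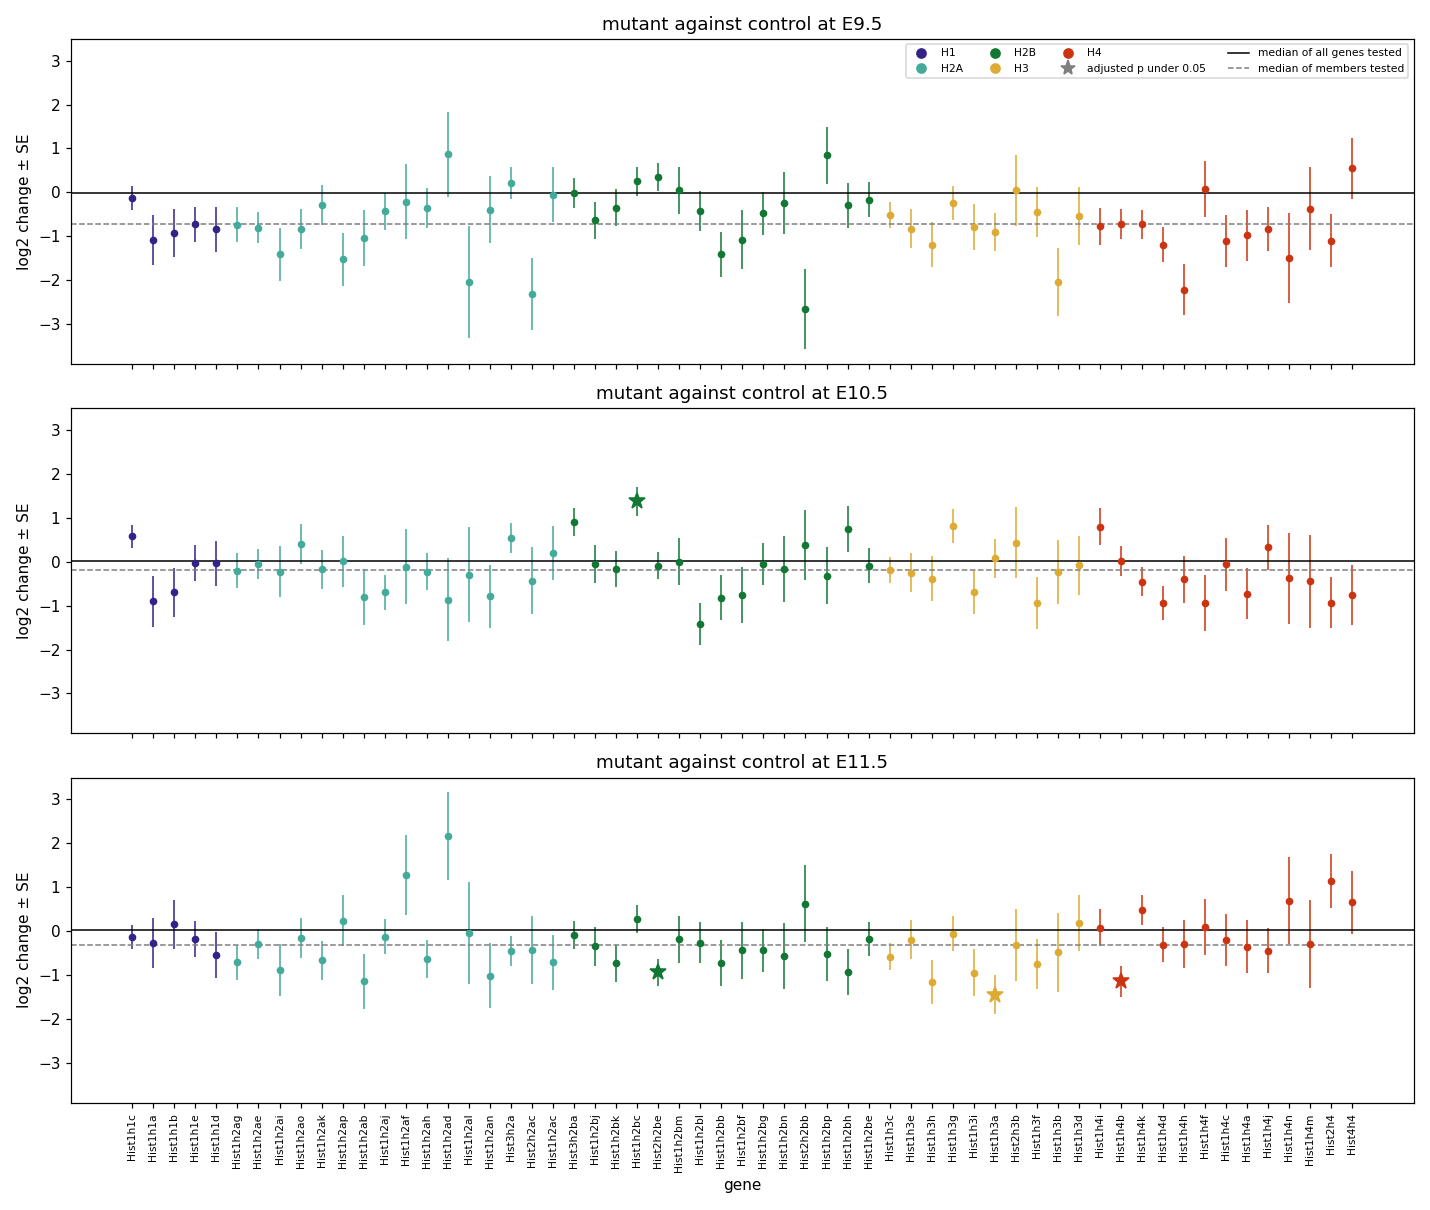
Log2 change of mutants against controls with its standard error (vertical axis) for the 59 tested members, ordered by type and mean CPM per kb, at 3 stages, with stars for adjusted p under 0.05. The black line is the median of all genes tested and the dashed line that of the members, which lay at -0.72, -0.19 and -0.31 from E9.5 to E11.5.

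At E10.5, 1 of 59 members rose in mutants and none fell, where 13.9% of all genes were called, 7.30% higher and 6.63% lower. The called member was Hist1h2bc (chr13:23684199-23692908, plus strand), an H2B gene. Its levels were 3.01, 1.51 and 2.37 CPM in controls and 5.39, 5.75 and 6.75 CPM in mutants, and every mutant lay above every control. It rose by a log2 change of 1.37 ± 0.33, with an adjusted p of 0.00969 in edgeR's test. At E9.5 it had 2.93 ± 0.14 CPM in controls and 3.49 ± 0.64 CPM in mutants (SD, n = 3). At E11.5 these were 4.06 ± 1.64 and 4.94 ± 2.10 CPM, and the groups overlapped at both of these stages. Without control E10.5 replicate 2 the log2 change at E10.5 was 1.15, with an adjusted p of 0.0558. The change of the mutant effect from E9.5 to E10.5 was 1.12 ± 0.46 on the log2 scale and did not pass (adjusted p 0.175 in edgeR's interaction test), and 17.4% of its 150-base windows were shared.

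The other members at E10.5 were not called. In 5 members mutants lay above all controls and in 11 below, where the shares over all genes were 23.0% and 23.1%, and the median log2 change was -0.19 against 0.02 over all genes. That median was -0.11 without mutant E10.5 replicate 1 and -0.32 without mutant E10.5 replicate 2. Hist3h2ba had 3.47, 6.36 and 6.48 CPM in mutants and 3.30, 2.59 and 2.85 CPM in controls, without overlap, at a log2 difference of 0.90 ± 0.32 and an adjusted p of 0.0705 in edgeR's test. It was called by DESeq2, and by edgeR without control E9.5 replicate 1 (adjusted p 0.00996). Hist1h1c, whose transcripts run 840 bases past the stem-loop in the gene model, had 11.7, 12.00 and 13.1 CPM in mutants and 7.95, 9.26 and 7.47 CPM in controls (log2 0.58 ± 0.27, adjusted p 0.166 in edgeR's test). The H2B gene Hist1h2bl had 0.29, 0.24 and 0.25 CPM in mutants and 0.66, 0.80 and 0.62 CPM in controls, also without overlap (log2 -1.42 ± 0.47, adjusted p 0.0557 in edgeR's test). Without control E9.5 replicate 1, Hist1h2bl, Hist3h2ba and the H4 gene Hist1h4d were called besides Hist1h2bc, 4 of 60 members in all, where 25.7% of all genes were called in that fit.

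At E11.5, 3 of 59 members fell in mutants and none rose, where 17.5% of all genes were called, 8.02% higher and 9.52% lower. All 3 had mutants below all controls, as had 6 members in all, where 20.7% of all genes were lower and 19.8% higher without overlap. Over the tested members the median log2 change was -0.31, against 0.01 over all genes, and 46 of 59 were negative. Without control E11.5 replicate 3 the median was -0.11, with 35 of 61 negative, and without control E11.5 replicate 1 it was -0.56. It was -0.59 with the trend of log2 change with gene length removed. By type the medians ran from -0.18 for H1 to -0.53 for H3.

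Hist1h3a, an H3 gene (chr13:23761853-23762386, minus strand) whose model ends 37 bases after the stem-loop, had 0.54, 1.40 and 1.14 CPM in E11.5 controls and 0.29, 0.37 and 0.46 CPM in mutants. It fell by 1.45 ± 0.44 on the log2 scale (adjusted p 0.0319, edgeR's test). Hist1h4b, an H4 gene (chr13:23757013-23757409, plus strand), had 1.59, 2.42 and 2.83 CPM in controls and 0.97, 0.92 and 1.20 CPM in mutants. It fell by 1.14 ± 0.35 (adjusted p 0.0305, edgeR's test). Of the 150-base windows, 23.4% were shared for Hist1h3a and 32.7% for Hist1h4b.

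Hist2h2be, an H2B gene of the chromosome 3 cluster (chr3:96221119-96223738, plus strand) with a 2620-base model and no window shared with another gene, had 11.7, 9.57 and 8.10 CPM in E11.5 controls and 4.82, 3.45 and 7.12 CPM in mutants. It fell by 0.93 ± 0.31 on the log2 scale (adjusted p 0.0451, edgeR's test). At E9.5 and E10.5 its genotypes overlapped. The change of its mutant effect from E9.5 to E11.5 was -1.28 ± 0.44 and did not pass in edgeR's interaction test (adjusted p 0.0866), whereas DESeq2 called it (adjusted p 0.0314).

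These 3 calls were close to the threshold. Hist1h3a and Hist1h4b were no longer called when control E11.5 replicate 2 or 3 or any of the E11.5 mutants was left out, with adjusted p from 0.0591 to 0.134 and from 0.0602 to 0.128 in edgeR's test. Hist2h2be was called in 7 of the 18 fits that left out 1 library. It was not called without control E10.5 replicate 1, any E11.5 control, any E9.5 mutant, E10.5 mutants 1 or 3, or E11.5 mutants 1 or 2 (adjusted p 0.0507 to 0.174 in edgeR's test). Without control E9.5 replicate 1, 5 of 60 members were called, the other two being the H3 genes Hist1h3c and Hist1h3h, where 28.8% of all genes were called in that fit. All 3 genes were lower in mutants in each of these fits.

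**Figure D3:**
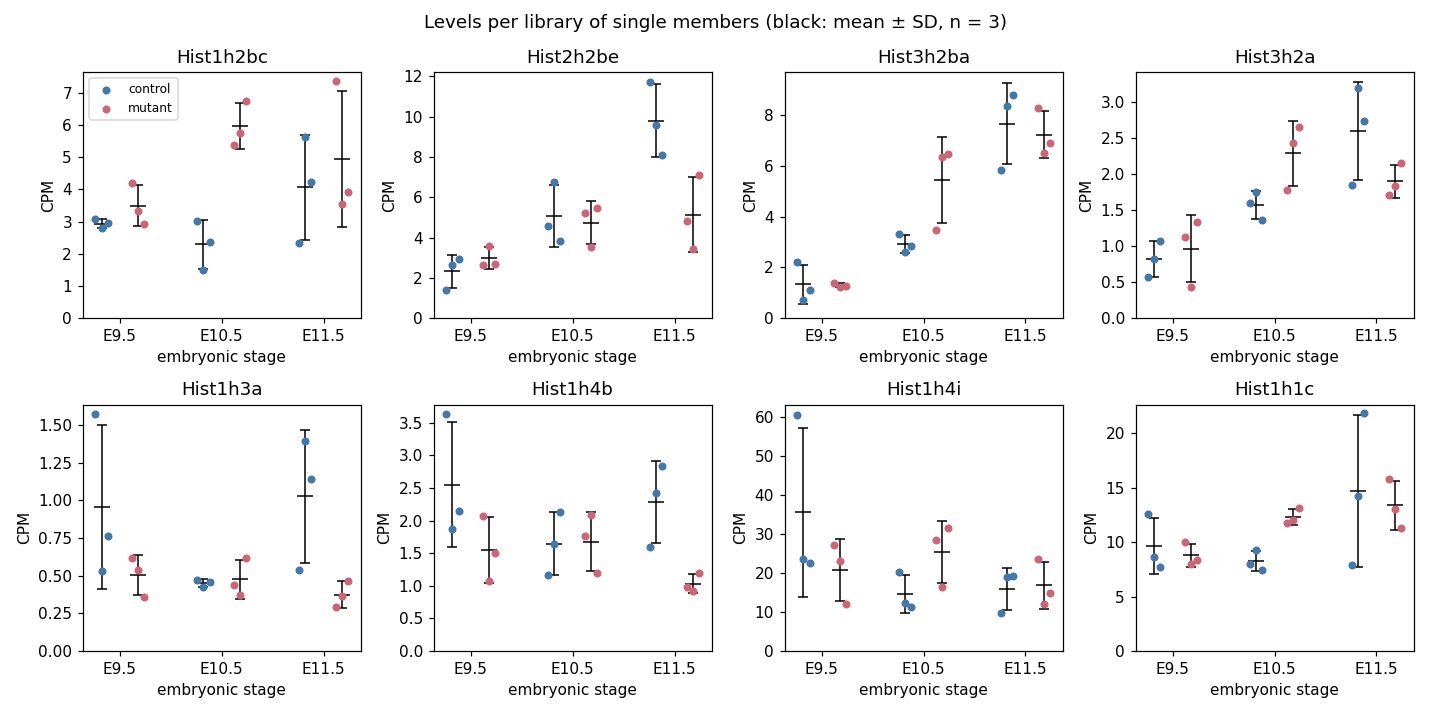
CPM (vertical axis, from 0) of 8 members by stage, 1 point per library, controls blue and mutants red, with mean ± SD in black (n = 3). Hist3h2ba climbs from 0.70 to 2.20 CPM in E9.5 controls to 5.83 to 8.80 CPM in E11.5 controls, and Hist1h2bc stands apart between genotypes at E10.5.

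Between stages, the called increases fell on H2B and H2A genes of the small clusters on chromosomes 11 and 3. Hist3h2ba (chr11:58948920-58949533, plus strand), which shares no 150-base window with another gene, had 2.20, 0.70 and 1.09 CPM in controls at E9.5, 3.30, 2.59 and 2.85 CPM at E10.5, and 5.83, 8.38 and 8.80 CPM at E11.5. No 2 stages overlapped. It rose by a log2 change of 1.15 ± 0.33 from E9.5 to E10.5 (adjusted p 0.0167) and of 1.39 ± 0.32 from E10.5 to E11.5 (adjusted p 0.0109, edgeR's test). In mutants it had 1.38, 1.23 and 1.28 CPM at E9.5, 3.47, 6.36 and 6.48 CPM at E10.5, and 8.28, 6.51 and 6.90 CPM at E11.5. There it rose by 2.07 ± 0.34 from E9.5 to E10.5 (adjusted p 0.000456, edgeR's test), and the last step was not called. The difference between genotypes in the first step was 0.92 ± 0.46 and in the second -0.98 ± 0.45, and neither passed (adjusted p 0.253 and 0.567 in edgeR's interaction test).

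In controls from E9.5 to E10.5, 3 of 59 members were called, 2 higher and 1 lower, where 27.5% of all genes were called, 15.0% higher and 12.5% lower. Besides Hist3h2ba these were Hist2h2be, which rose by 1.11 ± 0.31 on the log2 scale from 1.40, 2.66 and 2.94 CPM to 4.55, 6.78 and 3.83 CPM (adjusted p 0.0153, edgeR's test), and Hist1h4i. Hist1h4i fell by 1.29 ± 0.42 from 60.7, 23.6 and 22.6 CPM to 20.2, 12.2 and 11.4 CPM (adjusted p 0.0326, edgeR's test). Without control E9.5 replicate 1 neither passed: Hist1h4i had a log2 difference of -0.67 with an adjusted p of 0.319, and Hist2h2be of 0.85 with 0.0554. Leaving out control E10.5 replicate 2 also ended both calls (adjusted p 0.116 and 0.0917), and leaving out control E10.5 replicate 3 ended that of Hist1h4i (adjusted p 0.115). The rise of Hist3h2ba in this step missed the threshold without control E9.5 replicate 2 or 3 or control E10.5 replicate 1 (adjusted p 0.0503 to 0.0570, edgeR's test). The median over the members was -0.36. It was 0.16 without control E9.5 replicate 1 and -0.59 without control E9.5 replicate 2.

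In controls from E10.5 to E11.5, 1 of 59 members was called, Hist3h2ba, where 9.49% of all genes were called, 6.60% higher and 2.89% lower, and the median over the members was 0.22. The median changed sign, to -0.071 with 32 of 61 members negative, without control E11.5 replicate 3, and it was 0.43 without control E11.5 replicate 1 and 0.14 without control E11.5 replicate 2. The adjusted p of Hist3h2ba was 0.0503, 0.0504 and 0.0596 without control E10.5 replicate 2, control E10.5 replicate 3 and control E11.5 replicate 3 (edgeR's test). In mutants from E9.5 to E10.5, 2 of 59 members were called, where 14.0% of all genes were called, 9.63% higher and 4.40% lower. These were Hist3h2ba and its neighbour Hist3h2a, an H2A gene with 1.13, 0.44 and 1.33 CPM at E9.5 and 1.78, 2.43 and 2.65 CPM at E10.5. Hist3h2a rose by 1.26 ± 0.35 on the log2 scale (adjusted p 0.0234, edgeR's test). It shares 33.0% of its exon bases with Trim17 on the same strand, and its call was lost when E9.5 mutant 2, E10.5 mutant 2 or E10.5 mutant 3 was left out (adjusted p 0.0703 to 0.110, edgeR's test).

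From E10.5 to E11.5 in mutants, 0 of 59 members were called by edgeR or DESeq2, where 2.89% of all genes were called by edgeR. An unadjusted p under 0.05 was found for 0 members and for 13.1% of all genes. The genotypes' stage changes were also compared directly. For the change of the mutant effect from E9.5 to E10.5, from E10.5 to E11.5 and from E9.5 to E11.5, edgeR's interaction tests called 0 of 59 members each, where 2.22%, 0.0746% and 6.42% of all genes were called. At an unadjusted p under 0.05 there were 4, 7 and 5 of 59 members, where 21.98%, 8.47% and 25.5% of all genes had one, and DESeq2 called 0, 0 and 1.

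**Figure D4:**
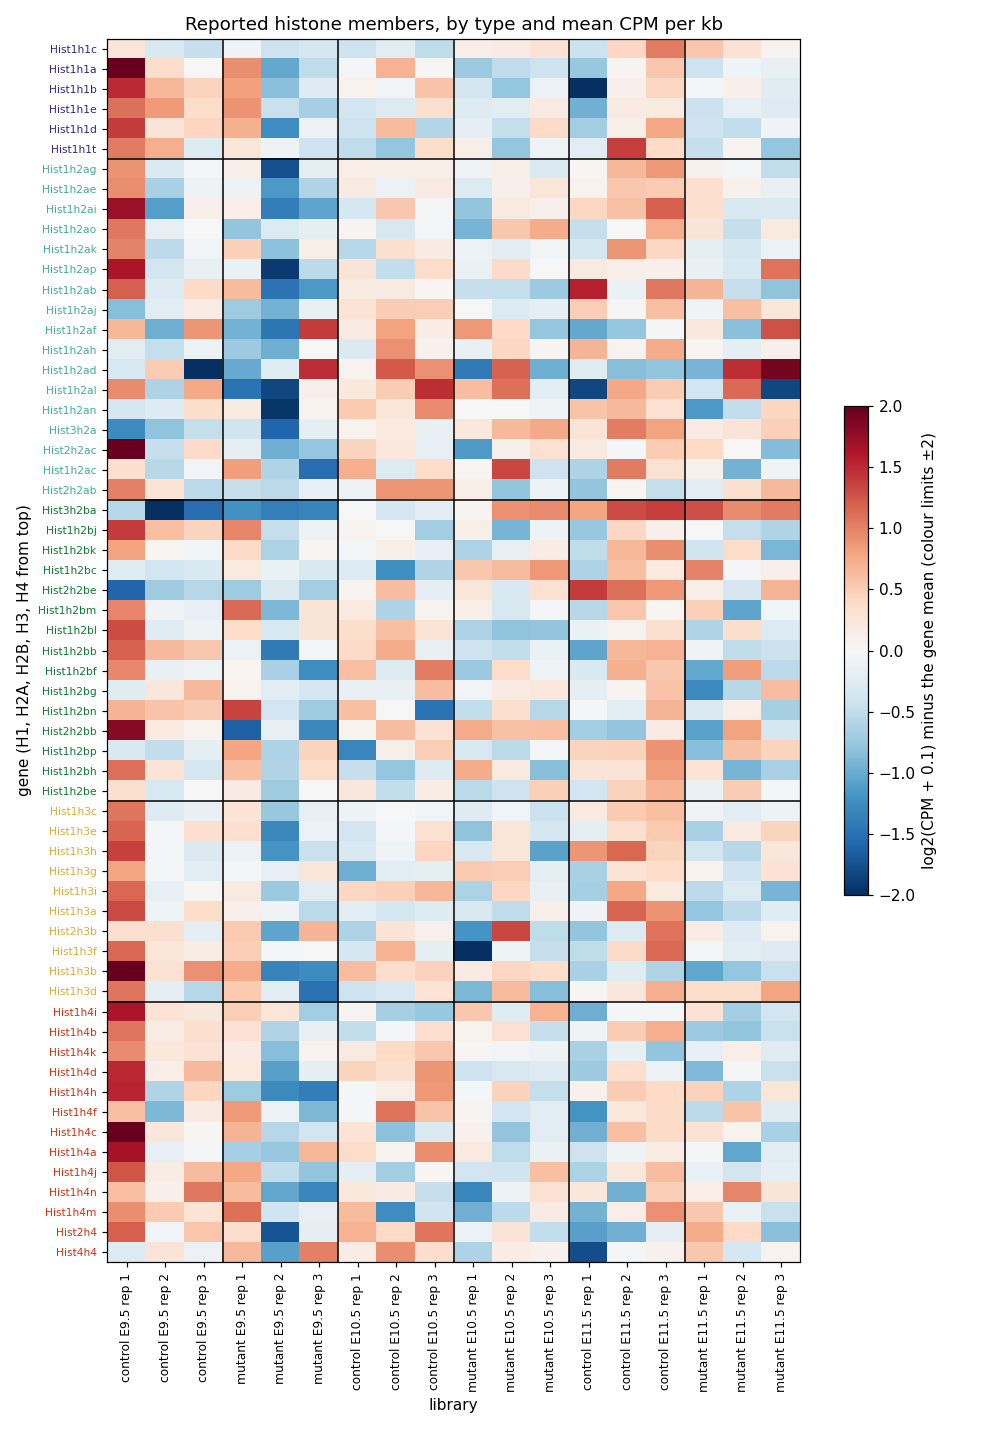
Deviation of log2(CPM + 0.1) from each gene's mean over 18 libraries (colour, limited to ±2) for the 61 reported members (rows, by type and mean CPM per kb) in the 18 libraries (columns, by stage and genotype). The first column, control E9.5 replicate 1, is red in most rows, and Hist3h2ba and Hist2h2be are low in E9.5 controls and high in E11.5 controls.

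At E9.5 and E11.5, medians were negative whether or not the gene model ended near the stem-loop. At E11.5 the median log2 change was -0.43 over the 19 tested members whose model ends within 100 bases of the stem-loop, -0.20 over the 18 that run further, and -0.34 over the 22 with no stem-loop found. At E9.5 these medians were -0.84, -0.51 and -0.58. The sum over members whose model ends near the stem-loop was 43.7, 18.3 and 20.2 CPM in E9.5 controls and 24.7, 10.2 and 17.1 CPM in E9.5 mutants, and the same library was again the highest. At E10.5 the sums of 2 classes went different ways. That sum was 15.5, 19.2 and 17.5 CPM in mutants, below the 20.2, 20.4 and 20.4 CPM of controls. Over members whose model runs further, Hist1h4i and Hist1h1c among them, mutants had 58.2, 54.1 and 69.5 CPM. This lay above the 49.9, 42.0 and 42.8 CPM of controls. The separation turned on Hist1h4i, which was called between genotypes at E10.5 in 0 of 27 settings. With Hist1h4i taken out of this sum, mutants and controls overlapped. With no stem-loop found, the E10.5 sums overlapped.

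Other lists of histone and replication genes were read beside the members. Of 18 genes of histone transcription and transcript processing, among them Slbp, Npat and Lsm11, none was called between genotypes at any stage in edgeR's test, with medians between -0.15 and 0.04, and 2, 1 and 2 had an unadjusted p under 0.05 from E9.5 to E11.5, where 9.92%, 27.97% and 30.5% of all genes had one. Among 20 histone chaperones, Ipo4, an importer of histones, rose in mutants at E10.5 by 0.52 ± 0.15 (adjusted p 0.0281) and at E11.5 by 0.63 ± 0.15 (adjusted p 0.00777). Chaf1b, a subunit of the CAF-1 complex that deposits histones on new DNA, rose at E11.5 by 0.43 ± 0.09 (adjusted p 0.00425). Lower were Nasp and Atrx at E10.5 and Ubn1 at E11.5, so 1 rose and 2 fell at the first of these stages and 2 rose and 1 fell at the second. Over all genes, 7.30% were called higher and 6.63% lower at E10.5, and 8.02% and 9.52% at E11.5. The counts of called chaperones were near these shares.

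Of 27 DNA replication genes, 2 fell in mutants at E10.5, Rrm1 and Lig1, where 6.63% of all genes were called lower. At E11.5, 5 rose, where 8.02% of all genes were called higher. The 5 were Ccne1, the cyclin of entry into S phase, at a log2 change of 0.97 ± 0.15, the ribonucleotide reductase subunit Rrm2 at 0.64 ± 0.11, Ung at 0.53 ± 0.11, Cdt1 at 0.35 ± 0.11 and Cdc6 at 0.34 ± 0.10 (adjusted p between 0.000317 and 0.0287 in edgeR's test). At that stage the replication list had a median of 0.15, against 0.01 over all genes. Among 11 replication-independent histones, most of whose transcripts carry poly(A) tails, H1f0 fell in mutants. It fell by 0.46 ± 0.13 at E10.5 (adjusted p 0.0278) and by 0.73 ± 0.13 at E11.5 (adjusted p 0.00126, edgeR's test). The other 10 were not called in edgeR's test, where 6.63% of all genes were called lower at E10.5 and 9.52% at E11.5. Summed over the 11, mutants had 4121 to 4302 CPM at E10.5 and 4166 to 4281 CPM at E11.5. Controls had 4535 to 4926 and 4595 to 4868 CPM, and the groups overlapped only at E9.5.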

How the data were processed

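The deposited files hold raw counts per gene that the authors made with featureCounts 1.6.4, run on paired reads as reverse-stranded over exons of GENCODE M22 on mm10, per the file headers. Reads were trimmed with cutadapt and aligned with STAR, per the submitters' processing notes, with settings not given in the sources used here. A deposited table of log2 FPKM values was not used. Symbols came from the GENCODE M21 annotation and covered 99.8% of identifiers. The members, the lists and the genes named were chosen with earlier results of these data known.

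Counts were fitted in R 4.3.3 with edgeR 4.0.16 (filterByExpr, TMM, robust quasi-likelihood model of 6 groups in 18 libraries), with Benjamini-Hochberg adjustment over 20118 genes and a threshold of 0.05. The fit was tested on simulated data. Log2 changes are given ± SE and levels as CPM per library or mean ± SD. Totals ran from 35034237 to 56230058 counts. Genes named in full were the 2 members of each type with the highest CPM per kb, up to 4 called members per comparison and direction, and up to 3 genes per other list and comparison. The remaining ones were named after their values were seen. Alternatives were other size factors and filters, removal of a trend with gene length, a replicate block, each pair of groups alone, DESeq2 1.42.0, and leaving out libraries.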

Additional observations from a re-analysis of the deposited data

How the results depend on the processing

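Reported members had a median of 33 counts per library, and how far these low counts limited the calls was not tested. Of the values of named genes under an alternative, 996 kept their direction and side of the threshold, 48 lost the threshold, 16 gained it and 26 changed sign. The cause of the changes below was not tested.

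DESeq2 called 1, 3 and 3 members between genotypes from the first to the last stage and 126 genes at E9.5, 5 and 3 members in the control steps, and 1 for the change of the mutant effect from E9.5 to E11.5. Over all genes DESeq2 called 0.569%, 15.9%, 20.0%, 29.9%, 12.1% and 15.6% in these comparisons. With each pair of groups fitted alone, 5 genes were called at E9.5, 6337 genes and 5 members at E10.5, 0 and 5 members in the control steps and 4 in the first mutant step, where 0.028%, 34.6%, 10.1%, 22.3% and 24.7% of all genes were called. With the length trend removed, 4 members were called at E10.5, 6 at E11.5 and 4 from E10.5 to E11.5 in controls, where 16.2%, 20.4% and 12.2% of all genes were called. Medians over the members were then -0.40, -0.37 and -0.59 between genotypes and -0.025 from E9.5 to E10.5 in controls, and log2 ratios of sums were -0.63 for H2A and -0.81 for H3 at E11.5 and 0.071 for all members at E10.5. Without both libraries that stood apart, 2 members were called at E10.5, 5 members and 5913 genes at E11.5, and 1 and 5 members in the control steps, where 18.7%, 28.7%, 22.1% and 18.1% of all genes were called. Without the member with most counts, E10.5 ratios were -0.31 for H1, -0.49 for H4 and 0.051 for all members.

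Leaving out 1 library gave 30 to 63 genes at E9.5, 1473 to 5333 at E10.5 and 2188 to 5976 at E11.5. Members called ran from 0 to 1, 0 to 4 and 0 to 5 there, from 1 to 5 and 0 to 6 in the control steps, from 1 to 3 in the first mutant step, and from 0 to 1 for changes of the mutant effect from E9.5. These fits tested 20735 to 20861 genes. Genes called higher and lower were 2131 to 3589 and 1513 to 3350 in the first control step, and 549 to 2123 and 145 to 1639 in the second. In the first mutant step they were 1170 to 2617 and 461 to 2238. For the change of the mutant effect from E9.5 to E10.5 they were 38 to 1362 and 86 to 1148. From E9.5 to E11.5 they were 188 to 1824 and 291 to 1515.

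The main fit did not pair libraries by replicate number. Of 9 same-number pairs, 3 correlated above 0.1 (-0.15 to 0.18), and those at E9.5 had 0.18, 0.12 and 0.07. With 3 libraries per group this check cannot exclude a pairing. With a replicate block, 2 members and 13.1% of all genes were called at E10.5, and Hist3h2ba at E9.5 had a log2 difference of 0.11.

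Some uncalled genes changed sign. At E9.5 these were Hist1h1c (0.011 with the length trend removed, 0.11 without both libraries, -0.26 to 0.11 leaving out 1), Hist3h2ba (0.34, 0.54, -0.33 to 0.54) and Hist1h3c (0.047 without both, -0.80 to 0.048). At E10.5 they were Hist1h4b (-0.17 with the length trend removed, -0.17 to 0.26), Hist1h2ae (-0.16 to 0.10) and Hist1h2bj (-0.29 to 0.21). At E11.5 they were Hist1h4i (-0.17 with the length trend removed, -0.25 to 0.27), Hist1h1c (-0.43 to 0.27), Hist1h1a (-0.58 to 0.10), Hist1h3e (-0.44 to 0.073) and Hist3h2ba (-0.25 to 0.024).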
